A study of Bos taurus with 3 samples.

Results

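The ribosomal protein genes of the newborn rumen were taken from the deposited count tables by name. A row belonged to the set if its gene name was RPS or RPL followed by a digit, or RPSA, RPLP0, RPLP1 or RPLP2, and names starting with RPS6K, which are kinases, were left out. This gave 84 rows of 27270. Of these, 34 were small subunit rows, 46 large subunit rows, 3 stalk rows, and 1 was RPS19BP1, which matched the name rule but encodes a protein that binds RPS19 and is no ribosomal protein itself. The filter on low counts passed 82 of the 84 rows, and the 2 that did not pass were RPL3L, with 49 unique molecular identifiers (UMIs) over all barcodes, and RPL10L, with 8. FAU and RACK1, whose products also sit in the ribosome, were outside the name rule and are given with the other translation genes.

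Ribosomes are built of a small and a large subunit, each a scaffold of ribosomal RNA dressed with proteins, most of them present in a single copy per ribosome. The stalk proteins RPLP0, RPLP1 and RPLP2 form the flexible arm of the large subunit that recruits elongation factors. Transcripts of these genes are among the most abundant in most mammalian cells, and their translation is controlled together through a pyrimidine tract at their starts. In the stratified epithelium of the rumen, cells divide near the basal layer and differentiate through spinous and granule layers toward the lumen.

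The samples were the ventral rumen sacs of 3 newborn Holstein calves, 1 day after birth, each stripped of its outer muscle layers. They were dissociated with EDTA and trypsin and then with collagenases, dispase, hyaluronidase and DNase I. Dead cells were removed where viability was low, and each sample was sequenced as 1 droplet library (10x Genomics). All 3 belonged to the newborn group, so every comparison was made between classes of cells within a calf, and the calf was the replicate. Barcodes with 500 to 4000 detected genes were used, provided they held no more than 50000 UMIs and no more than 40% mitochondrial UMIs, and after doublets were removed by a simulation-based score 4695, 9746 and 9601 cells remained for calves 1, 2 and 3. Their median depths were 10150, 6458 and 7413 UMIs. The libraries shared 21 to 37 barcode sequences per pair, and 8 to 25 of these were among the cells used. Ribosomal protein genes held 33.7%, 37.8% and 33.1% of the UMIs of all barcodes of calves 1, 2 and 3, and 35.9%, 38.9% and 34.2% of those with 500 to 4000 genes. In barcodes with fewer than 500 genes the share was 5.51% to 7.73%, and in barcodes with more than 4000 genes it was 28.6% to 33.1%.

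Cells were clustered without the ribosomal protein and mitochondrial genes, so that the classes did not rest on the rows of the set. The other translation genes and those of ribosome biogenesis were not left out. Classes were rebuilt from markers and are therefore called endothelial-like, T cell-like and so on. In their own class the level was highest for 8 of 8 endothelial, 8 of 8 fibroblast, 8 of 9 dendritic (all but CPVL) and 12 of 13 T cell markers (all but NKG7). The same held for 9 of 9 G2/M markers, 7 of 10 S-phase markers (all but CLSPN, RRM2 and TYMS) and 9 of 9 spinous markers. Clusters were named from these same lists, so the counts describe the classes and are no independent check of their names. The remaining epithelial cells, called other epithelial, were the reference. Calf 1 gave only 3 T cell-like and 2 dendritic-like cells, so these classes were compared in calves 2 and 3 alone, as were the macrophage-like and the myofibroblast- or mural-like cells.

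Within the ribosomal protein UMIs of other epithelial cells, the 5 rows with the most UMIs held 19.4%, 20.1% and 18.5% in calves 1, 2 and 3, and the 20 with the most held 48.6%, 49.9% and 49.2%. RPLP1, RPS12, RPLP0 and RPS2 were among the 5. RPLP1 reached 237, 266 and 218 UMIs per 10000 in calves 1, 2 and 3, and RPS12, a small subunit protein, 147, 164 and 142. At the low end were RPS4Y1, RPS19BP1, RPL3L, RPL10L and a second row named RPS29 (ENSBTAG00000025666), which had 641 UMIs over all barcodes against 599029 on the main RPS29 row (ENSBTAG00000052337). Ribosomal protein genes have many near-identical processed copies in mammalian genomes, so reads can be lost or split between rows, and these UMI counts rank rows and not transcripts.

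The share of UMIs on ribosomal protein genes over the summed cells of a class was highest in other epithelial cells in every calf, and in calves 2 and 3 lowest in macrophage-like and then dendritic-like cells. In other epithelial cells it was 40.01%, 42.5% and 38.6% in calves 1, 2 and 3, which is 40.4% ± 1.99 (SD, n = 3 calves). Endothelial-like cells had 30.3%, 25.4% and 20.7%. Fibroblast-like cells had 25.6%, 20.5% and 18.1%, with the first of these from only 18 cells. The values of both stromal classes lay below every other epithelial value. In fibroblast-like cells the median over single cells was lower than the summed share, at 17.3%, 17.9% and 12.8%, so that calf 1 was not highest by this measure. Of the fibroblast-like clusters, the one led by MGP and COL3A1 had 19.1% and 14.4% in calves 2 and 3, and the one led by COL1A1 and COL1A2 had 23.4% and 22.8%.

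The immune classes were split. T cell-like cells held 32.4% in calf 2 (24 cells) and 30.8% in calf 3, next below the other epithelial cells in both calves. Dendritic-like cells held 14.8% in calf 2 (29 cells) and 17.7% in calf 3, where their median over cells, 17.1%, lay above that of fibroblast-like cells, and macrophage-like cells 12.4% (13 cells) and 11.5%. T cell-like and dendritic-like values were far apart in both calves and did not overlap. Myofibroblast- or mural-like cells, with 27.5% and 24.0% in calves 2 and 3, were near the G2/M-like epithelial cells. Among dendritic-like clusters, the one led by FCER1A and CD1E had 14.03% and 16.9% in calves 2 and 3, and the one led by DNASE1L3, CXCL9 and BATF3 had 20.7% in calf 3. Among T cell-like clusters, the one marked by CTSW and CD3E had 33.1% and 32.9% in calves 2 and 3, while the one led by IL17F had 25.3% in calf 3.

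**Figure D1:**
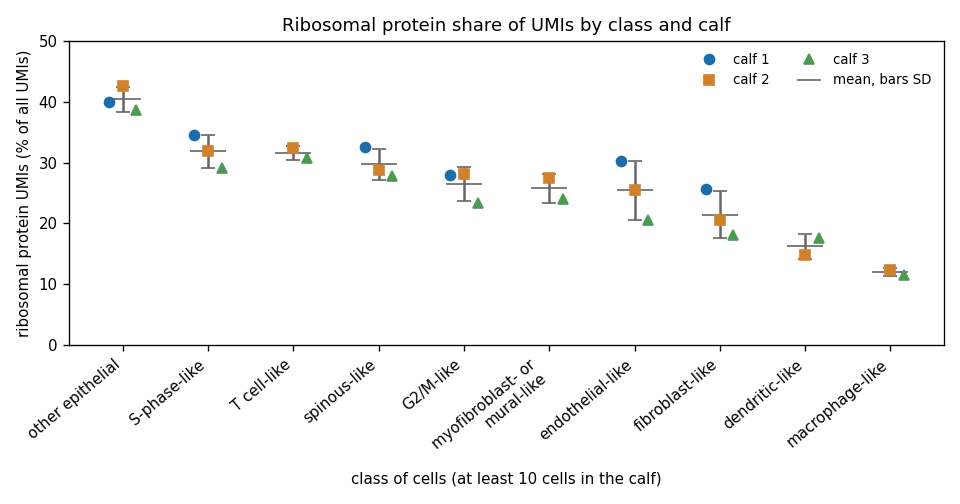
Share of all UMIs that fell on ribosomal protein genes (y axis, percent) for each class of cells (x axis), with 1 point per calf, the mean as a horizontal line and the SD over calves as bars, for classes with at least 10 cells in a calf. Other epithelial cells sit at 38.6% to 42.5%, above every other class, and macrophage-like and dendritic-like cells sit at 11.5% to 17.7%.

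Within calves, the share fell short of that of other epithelial cells by 14.9 ± 4.52 percentage points in endothelial-like cells and 19.0 ± 4.02 in fibroblast-like cells (SD, n = 3 calves). In calves 2 and 3 the shortfall was 24.3 ± 4.79 points for dendritic-like and 8.93 ± 1.66 for T cell-like cells (SD, n = 2). T cell-like cells lay above dendritic-like cells by 15.3 ± 3.13 points (SD, n = 2). Every calf showed the stated direction in all these comparisons, and with 3 calves an exact paired permutation test cannot go below p = 0.25, so no test was made of the shares. Across calves, markers of epithelial cells moved with the share in endothelial-like cells. In fibroblast-like cells only calf 1 stood out in both, and its median share over single cells was not the highest. Between calves 2 and 3 the fibroblast-like share differed at a like marker sum. The 8 epithelial markers summed to 176 to 213 UMIs per 10000 in other epithelial cells, to 31.4, 13.6 and 6.93 in endothelial-like cells of calves 1, 2 and 3, and to 101, 34.3 and 34.3 in fibroblast-like cells, where only CDH1 in calf 1 was at 0. Their part in the share was not tested. In dendritic-like cells the same markers summed to 7.49 and 5.39, with DSP, EPCAM and KRT19 at 0 in calf 2, and in T cell-like cells to 9.40 and 6.96, with CDH1 and DSP at 0 in calf 2. The 6 macrophage markers summed to 28.2 in the dendritic-like cells of calf 2 and to 1.69 in those of calf 3, and their part was not tested either. Depth also differed: the median was 6420.5 to 9039 UMIs in other epithelial, 3690 to 4479 in endothelial-like, 1813 to 2567.5 in fibroblast-like, 2563 to 2606 in T cell-like and 5838 to 7110 in dendritic-like cells. Among cells with 3000 to 10000 UMIs only, a window chosen after depths were seen, every one of these differences kept its direction.

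The epithelium itself was graded. S-phase-like cells, which carry the markers of DNA replication, had shares of 34.5%, 31.9% and 29.1% in calves 1, 2 and 3. Spinous-like cells, the differentiating layer, had 32.5%, 28.8% and 27.7%. G2/M-like cells, which carry mitotic markers, had 28.0%, 28.2% and 23.3%. In each calf these 3 classes lay below the other epithelial cells and kept the same order among themselves. Spinous-like and G2/M-like cells were close in calf 2, so these neighbours were not apart beyond the spread over calves. The within-calf shortfalls were 8.51 ± 2.64 points for S-phase-like, 10.7 ± 3.12 for spinous-like and 13.9 ± 1.68 for G2/M-like cells (SD, n = 3). Mitochondrial UMIs were 5.80% to 6.24% in other epithelial cells and 8.43% to 11.2% in G2/M-like, 6.53% to 11.2% in S-phase-like and 8.21% to 12.1% in spinous-like cells. Of the UMIs outside mitochondrial genes, the ribosomal protein share was 41.1% to 45.3% in other epithelial and 26.2% to 31.5% in G2/M-like cells, so the groups did not overlap on this base either. All 3 of these classes were deeper than other epithelial cells in every calf. Their medians were 11828 to 14905.5 UMIs in G2/M-like, 9970.5 to 13445.5 in S-phase-like and 10112 to 13773 in spinous-like cells, against 6420.5 to 9039.

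Among the 12 epithelial clusters, the highest share in every calf belonged to a cluster led by CCN2 and RGS4, with 43.7%, 45.6% and 40.9% in calves 1, 2 and 3. A cluster led by ATF3 and CXCL3 had 39.7% to 43.4%, and a cluster with RGS4, PLAC8 and HPGD 39.4% to 44.0%. Another cluster led by ATF3, with GADD45B, had 35.6% to 39.1%, and the one led by IL1R2 and CAMK2N1 36.8% to 40.3%. The 2 spinous-like clusters differed: the one led by SPINK5 and KRTDAP, genes of the differentiating epidermis, held 33.6%, 29.6% and 30.7%, and the one led by FABP4, a fatty acid-binding protein, held 26.8%, 26.6% and 22.4%. Of the G2/M-like clusters, the one led by TOP2A and MKI67 had 28.0%, 27.6% and 23.4% and the one led by CENPF and PTTG1 had 28.0%, 29.9% and 21.99%. 2 shallow clusters with mitotic markers were kept out of the G2/M-like class by their depth, a limit set after depths were seen. They held 213, 297 and 221 cells, or 4.65%, 3.39% and 2.84% of the epithelial cells of calves 1, 2 and 3, and their shares spread from 11.05% to 37.3%. These cells were counted with the other epithelial cells, and with them moved to the G2/M-like class the difference of that class in share was -14.6 points.

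**Figure D2:**
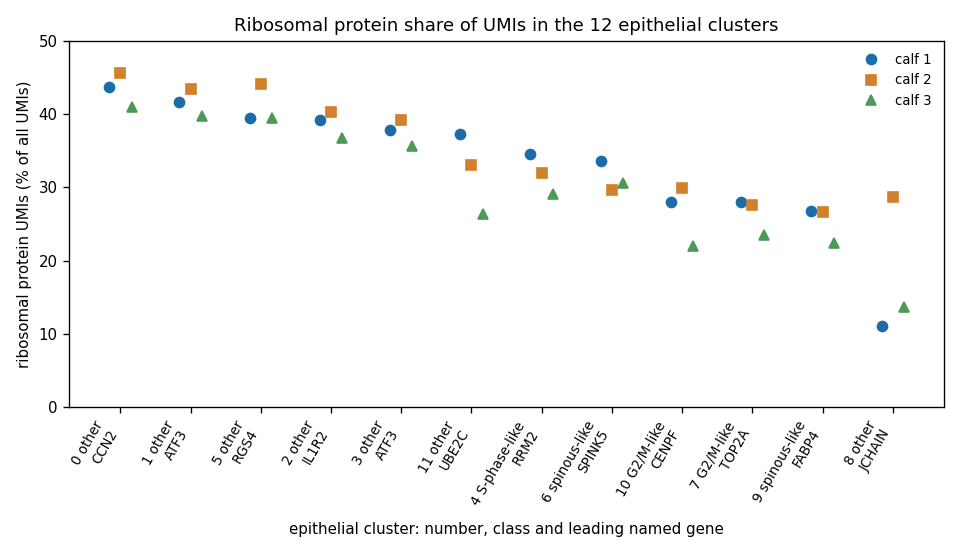
Share of all UMIs on ribosomal protein genes (y axis, percent) in each of the 12 epithelial clusters (x axis, with the class and the leading named gene), with 1 point per calf. Clusters outside the cycling and spinous-like classes reach 35.6% to 45.6%, apart from the 2 shallow ones, and cluster 9, led by FABP4, lies at 22.4% to 26.8%.

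To ask how evenly the genes moved, UMIs were summed per calf and class and tested with edgeR's quasi-likelihood test, calf as a block, with Benjamini-Hochberg adjustment over the 12858 genes tested. In endothelial-like cells 76 of the 82 ribosomal protein rows fell against other epithelial cells, where 24.3% of all genes fell. The 6 that did not pass were the second RPS29 row, RPS19BP1 and the paralogs RPS4Y1, RPL7L1, RPL26L1 and RPS27L. The median log2 difference of the 82 rows was -1.02, against -0.04 over all genes. In fibroblast-like cells 78 of 82 fell (16.5% of all genes) with a median of -1.37 against -0.21, and in dendritic-like cells 80 of 82 fell (23.7% of all genes) with a median of -1.52 against -0.16. By subunit, 31 of 34 small, 42 of 44 large and 3 of 3 stalk rows fell in endothelial-like cells, and 33 of 34, 44 of 44 and 3 of 3 in dendritic-like cells. The 2 rows that did not pass in dendritic-like cells were RPS19BP1 and the second RPS29 row, and in fibroblast-like cells RPL4 (log2 difference -0.41) and RPL26L1 joined them.

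In T cell-like cells the fall was smaller, with 43 of 82 rows lower (16.6% of all genes) and a median of -0.54 against -0.31 over all genes. The 1 row that rose was RPS19BP1 (13.4% of all genes rose). The median over all genes was -0.09 under DESeq2 and -0.47 with TMM from genes outside the ribosomal proteins, where the median of the ribosomal protein rows was -0.47 and -0.74. Set against dendritic-like cells, 69 of 82 rows were higher in T cell-like cells (5.23% of all genes) and 13 did not pass, with a median of 1.01 against -0.02 over all genes. Among cells of 3000 to 10000 UMIs that count was 33, with the percent of all genes there not given. The comparisons with other epithelial cells share that reference.

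**Figure D3:**
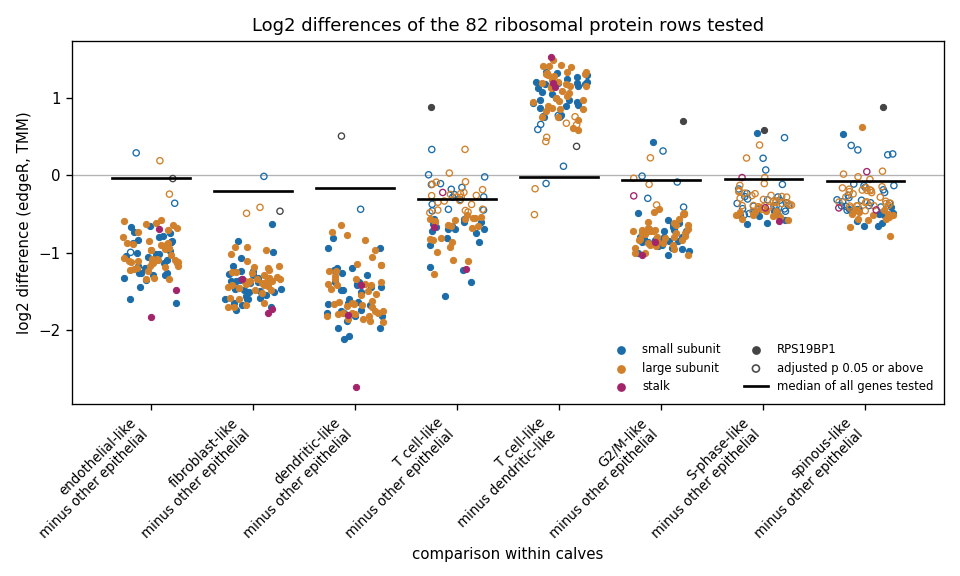
Log2 differences (y axis) of the 82 ribosomal protein rows tested in each of 8 comparisons (x axis), coloured by subunit, filled where the adjusted p of edgeR's test was under 0.05, with the median of all genes tested as a black bar. The rows lie around -1.02, -1.37 and -1.52 in endothelial-like, fibroblast-like and dendritic-like cells and around 1.01 in T cell-like against dendritic-like cells, while the black bars lie between -0.31 and -0.02.

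Among epithelial states, G2/M-like cells showed the widest fall, with 70 of 82 rows lower (14.8% of all genes) and 2 higher (16% of all genes), RPS19BP1 and RPS4Y1. The median was -0.75 against -0.06 over all genes. In S-phase-like cells 19 rows were lower (8.14% of all genes) and 2 higher (11.6% of all genes), with a median of -0.39 against -0.05. In spinous-like cells 24 were lower (17.2% of all genes) and 3 higher (15.4% of all genes), with a median of -0.36 against -0.07. The 3 that rose in spinous-like cells were RPS19BP1, RPL4 and RPS4Y1, and the share of rows that fell in S-phase-like and spinous-like cells was above that of all genes. These S-phase-like and spinous-like counts depended on the libraries: without calf 1, 2 and 11 rows passed in either direction, and without calf 2 the spinous-like count was 13, and without calf 3 the S-phase-like count was 13. Without the calf as a block no row passed in S-phase-like cells by edgeR (2 higher and 19 lower at an unadjusted p under 0.05), while DESeq2, with the block, called 64. In spinous-like cells 4 passed without the block and 56 by DESeq2. The percent of all genes that passed under these other settings is not given here, so these counts are not set against it.

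The stalk moved unevenly. RPLP1, an acidic protein of the stalk tip, fell furthest of all rows in dendritic-like cells, from 266 and 218 UMIs per 10000 in other epithelial cells of calves 2 and 3 to 40.6 and 45.3. The log2 difference was -2.74 (SE 0.22, adjusted p = 2.59e-11, edgeR). In endothelial-like cells RPLP1 stood at 111, 90.9 and 69.7 in calves 1, 2 and 3 and its log2 difference was -1.84. All values of both classes lay below the lowest of the other epithelial cells. RPLP0, the base of the stalk, went from 134, 133 and 116 in other epithelial cells to 74.4, 59.6 and 49.2 in endothelial-like cells, a log2 difference of -1.48 (SE 0.22, adjusted p = 1.43e-06). RPLP2, the partner of RPLP1, went from 47.0, 38.5 and 36.6 to 43.4, 31.5 and 26.0, a smaller log2 difference of -0.70 (SE 0.16, adjusted p = 0.00052), and these groups overlapped. RPSA, a small subunit protein first known as a laminin receptor precursor, went from 70.1, 69.2 and 63.5 to 48.0, 35.1 and 30.8 (log2 difference -1.26). As a share of ribosomal protein UMIs, the 3 stalk rows held 10.1% ± 0.451 in other epithelial cells (SD, n = 3), 7.24% ± 0.274 in endothelial-like (n = 3), 6.38% ± 0.162 in dendritic-like and 7.65% ± 0.399 in T cell-like cells (SD, n = 2). Small subunit rows held means of 46.5% to 48.3% in all 10 classes.

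Genes that left the shared pattern were found with the same test after each sum was scaled to its ribosomal protein UMIs, so that a gene passes if it takes another share of them. On this scale genes at large shift upward wherever ribosomal proteins are low: the median of all genes was 1.09 in endothelial-like, 1.29 in fibroblast-like, 1.23 in dendritic-like and 0.73 in G2/M-like cells. In endothelial-like cells 16 rows took a higher share (63.1% of all genes) and 5 a lower one (8.92% of all genes), in fibroblast-like cells 11 a higher one (54.3%), and in dendritic-like cells 15 a higher (54.3%) and 3 a lower one (7.43%). In T cell-like cells 7 took a higher (18.9%) and 8 a lower share (9.81%), and against dendritic-like cells 1 a higher (1.81%) and 8 a lower one (31.2%). In G2/M-like, S-phase-like and spinous-like cells 11, 8 and 7 rows took a higher share, where 54.9%, 29.9% and 28.4% of all genes did. Taken out of the 82 rows, none of these counts exceeded the percent of all genes. The count with a lower share in T cell-like cells was nearly equal to it. The count in fibroblast-like cells was 3 without calf 2 and 6 without calf 3, and that in S-phase-like cells was 5 without calf 2.

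**Figure D4:**
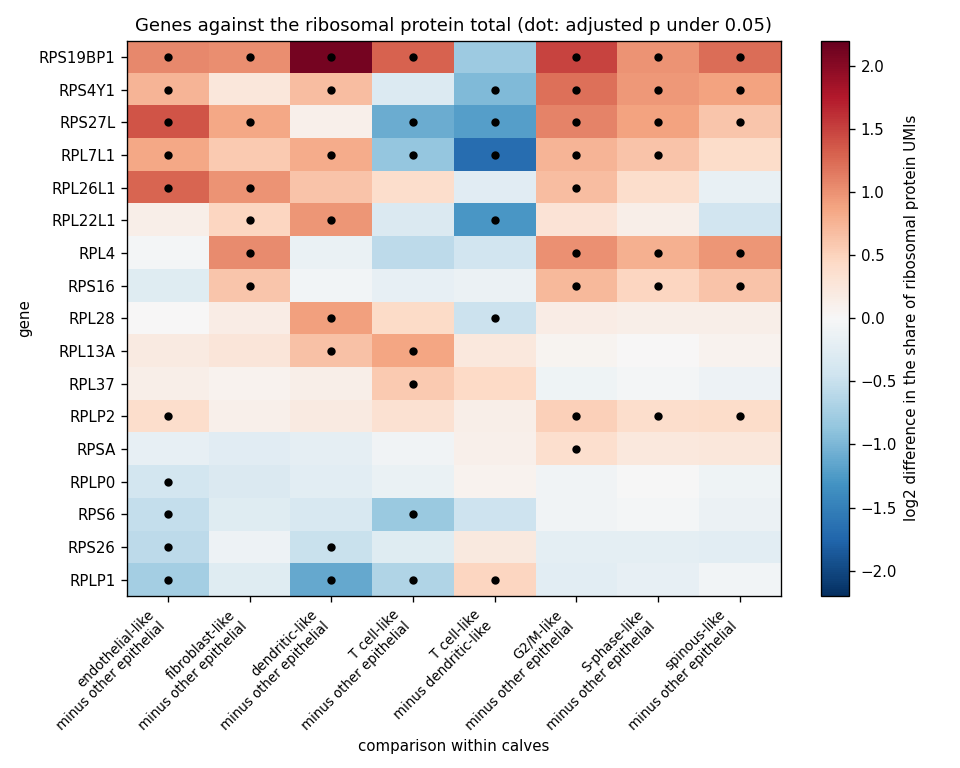
Log2 differences in the share of ribosomal protein UMIs (colour scale) for 17 genes (y axis) in the 8 comparisons (x axis), with a dot where the adjusted p of edgeR's test was under 0.05. RPLP1 is blue in endothelial-like, dendritic-like and T cell-like cells, RPL4 and RPS16 are red in the 3 epithelial states and in fibroblast-like cells, and RPL28 and RPL13A are red in dendritic-like cells.

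RPL4, a large subunit protein that reaches into the tunnel through which the nascent chain leaves, rose within the set in the epithelial states. It held 0.318%, 0.185% and 0.249% of the ribosomal protein UMIs of other epithelial cells in calves 1, 2 and 3. In spinous-like cells it held 0.490%, 0.449% and 0.502%, and in G2/M-like cells 0.506%, 0.390% and 0.602%. All of these lay above the highest other epithelial value, and the log2 differences were 0.96 (SE 0.19, adjusted p = 0.000163) and 1.01 (SE 0.19, adjusted p = 4.33e-05). The log2 difference was 0.79 in S-phase-like cells and 1.04 in fibroblast-like cells, where RPL4 held 0.491%, 0.454% and 0.568%. The fibroblast-like value lay below the median of all genes on this scale, 1.29. In level RPL4 did not pass there (log2 difference -0.41, adjusted p = 0.0645, edgeR). In endothelial-like cells RPL4 held 0.320%, 0.178% and 0.233%, each close to the value of the same calf in other epithelial cells (adjusted p = 0.825).

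In level, RPL4 stood at 12.7, 7.87 and 9.59 UMIs per 10000 in other epithelial cells and at 15.9, 12.9 and 13.9 in spinous-like cells, so it was higher there while most rows were not. Its log2 difference in level was 0.62 (SE 0.16, adjusted p = 0.00442). RPS16, a small subunit protein whose tail touches the tRNA, held 0.204%, 0.191% and 0.198% in other epithelial cells and 0.291%, 0.307% and 0.320% in spinous-like cells, a log2 difference of 0.63 in share. The same difference for RPS16 was 0.70 in G2/M-like, 0.48 in S-phase-like and 0.61 in fibroblast-like cells, the last of which did not pass without calf 2 (0.48) or among cells of 3000 to 10000 UMIs (0.36). In fibroblast-like cells the median of all genes on this scale was 1.29, and RPS16 fell in level (log2 difference -0.85, adjusted p = 4.3e-05, edgeR). RPLP2 took a higher share in G2/M-like, S-phase-like and spinous-like cells, by 0.52, 0.38 and 0.40, and in endothelial-like cells by 0.38, and RPSA in G2/M-like cells by 0.37.

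RPL28, a large subunit gene that animals have and yeast lacks, held 1.07%, 0.989% and 1.19% of the ribosomal protein UMIs of other epithelial cells and 2.03% and 2.04% of those of dendritic-like cells in calves 2 and 3. The log2 difference in share was 0.90 (SE 0.17, adjusted p = 3.46e-05). In level it was nonetheless lower, at 30.1 and 36.0 UMIs per 10000 against 42.0 and 46.1 in the same calves. Its fall in level, -0.73 in log2, was smaller than the median of the rows, -1.52. The share of RPL28 in T cell-like cells was 1.33% and 1.62% and did not pass (adjusted p = 0.0601).

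RPL13A, a large subunit gene also known for a role outside the ribosome in repressing inflammatory transcripts, was the ribosomal protein that rose most within the set in T cell-like cells, from 1.09% and 1.08% to 1.75% and 2.24% in calves 2 and 3. Its log2 difference in share was 0.86 (SE 0.17, adjusted p = 0.000196), and in dendritic-like cells, at 1.69% and 1.73%, it was 0.64 (SE 0.17, adjusted p = 0.00169). In level, RPL13A stood at 56.8 and 69.1 UMIs per 10000 in T cell-like cells and 46.3 and 41.5 in other epithelial cells, without passing the test of level (adjusted p = 0.235). In dendritic-like cells its level fell, with a log2 difference of -0.96 (adjusted p = 0.000419, edgeR). RPL37, a zinc-binding large subunit protein, went from 0.832% and 0.905% to 1.21% and 1.37% in T cell-like cells, a log2 difference of 0.57 (SE 0.16, adjusted p = 0.00885) that did not pass among cells of 3000 to 10000 UMIs (0.49).

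RPS6, the small subunit protein phosphorylated by the S6 kinases, was among those that took a lower share. It went from 1.70% and 1.61% in other epithelial cells of calves 2 and 3 to 1.04% and 0.822% in T cell-like cells, a log2 difference of -0.82 (SE 0.18, adjusted p = 0.000766). In endothelial-like cells it held 1.37%, 1.05% and 1.03% in calves 1, 2 and 3, against 1.63% in calf 1 of the reference, with a log2 difference of -0.52. RPS26, which lines the path by which messenger RNA leaves the small subunit, held 0.917%, 0.858% and 0.708% in other epithelial and 0.641%, 0.571% and 0.460% in endothelial-like cells, a log2 difference of -0.58 (SE 0.15, adjusted p = 0.00122). RPS26 also took a lower share in dendritic-like cells, with a log2 difference of -0.49. RPLP1 did so in endothelial-like cells, where it held 3.66%, 3.57% and 3.37% against 5.92%, 6.26% and 5.64%, and in dendritic-like cells, where it held 2.74% and 2.56%, with log2 differences of -0.75 and -1.13. Between T cell-like and dendritic-like cells, RPLP1 was the 1 row with a higher share in the former (log2 difference 0.47), which did not pass among cells of 3000 to 10000 UMIs (0.32).

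**Figure D5:**
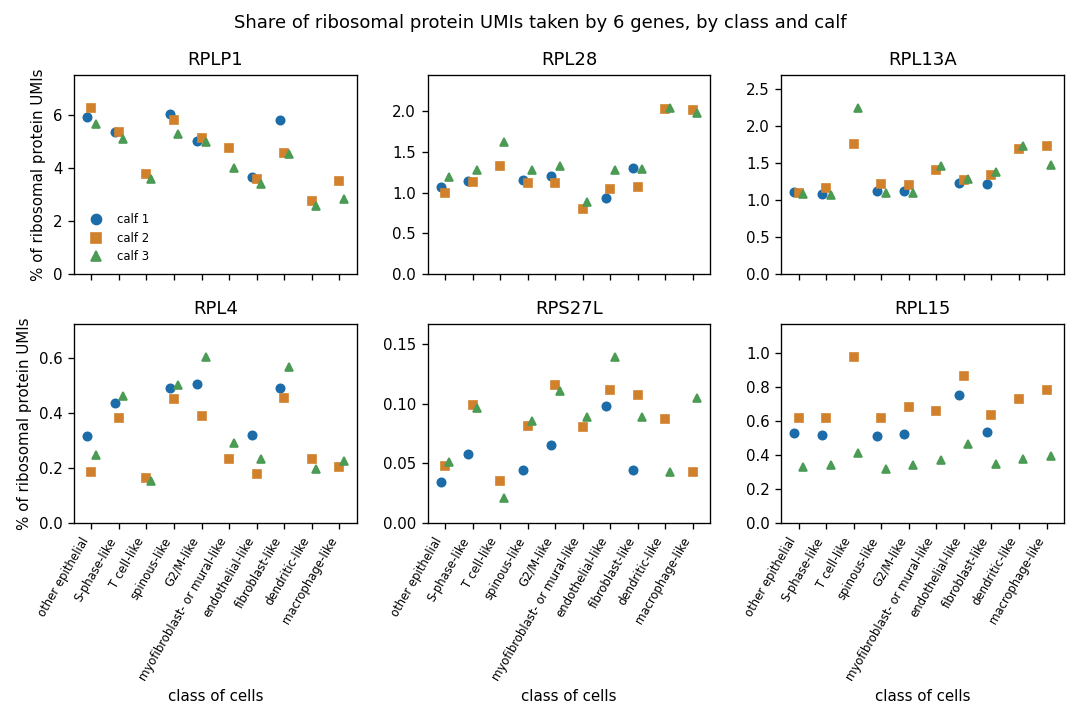
Percent of the ribosomal protein UMIs held by RPLP1, RPL28, RPL13A, RPL4, RPS27L and RPL15 (y axes, each from 0) in each class of cells (x axis), with 1 point per calf. RPLP1 falls to 2.56% to 2.74% in dendritic-like cells, RPL28 rises to 2.03% to 2.04% there, RPL13A reaches 1.75% to 2.24% in T cell-like cells, and RPL15 is lowest in calf 3 throughout.

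Paralogs were among the rows with the largest departures from the set. On the scale of ribosomal protein UMIs the median of all genes was 1.09 in endothelial-like and 0.73 in G2/M-like cells. In level, neither RPS27L nor RPL26L1 passed in endothelial-like cells, and neither RPS27L nor RPL7L1 rose past the threshold in G2/M-like cells. RPS27L, a paralog of RPS27 known as a target of p53, held 2.79%, 3.98% and 5.31% of the UMIs of the RPS27 and RPS27L pair in other epithelial cells of calves 1, 2 and 3. It held 5.73%, 9.66% and 12.4% in G2/M-like and 7.06%, 8.25% and 12.02% in endothelial-like cells. Every calf showed the rise, and the lowest G2/M-like value lay just above the highest other epithelial one. Its share of all ribosomal protein UMIs rose by a log2 difference of 1.38 in endothelial-like cells (SE 0.21, adjusted p = 1.73e-06) and 1.10 in G2/M-like cells (SE 0.21, adjusted p = 5.86e-05). In T cell-like cells the pair share was 2.85% and 1.76%, from 9 and 53 RPS27L UMIs, and the log2 difference was -1.09 (SE 0.31, adjusted p = 0.00897). That result did not pass without the block (-0.79) or among cells of 3000 to 10000 UMIs (-0.90).

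RPL26L1 held 3.68%, 3.68% and 3.31% of its pair with RPL26 in other epithelial cells and 6.34%, 7.09% and 7.04% in endothelial-like cells. The groups did not overlap, and the log2 difference in ribosomal protein share was 1.29 (SE 0.22, adjusted p = 7.82e-06), beside the 1.09 of all genes. In fibroblast-like cells RPL26L1 had 3 UMIs in calf 1, where its pair share was 2.33%, against 6.73% and 6.92% in calves 2 and 3. RPL7L1 held 3.08%, 3.42% and 4.48% of its pair with RPL7 in other epithelial and 4.32%, 5.68% and 7.29% in G2/M-like cells, where the 2 groups overlapped between calves but every calf moved up. There it took a higher share of the ribosomal protein UMIs (log2 difference 0.75, adjusted p = 0.00295), close to the 0.73 of all genes. In T cell-like cells RPL7L1 had 4 and 52 UMIs, and its lower share (-0.86, adjusted p = 0.0492) did not pass under 5 of 8 other settings. RPL22L1 held 0.0831% and 0.0801% of the ribosomal protein UMIs of other epithelial cells in calves 2 and 3 and 0.193% and 0.133% in dendritic-like cells, a log2 difference of 0.96 (SE 0.21, adjusted p = 0.000232). This lay below the 1.23 of all genes on that scale. In level RPL22L1 fell there, with a log2 difference of -0.64 (adjusted p = 0.00637, edgeR). The row named RPS4Y1 held 1.96%, 1.17% and 2.01% of its pair with RPS4X in other epithelial and 3.87%, 3.50% and 5.16% in G2/M-like cells, so these did not overlap, with log2 differences in ribosomal protein share of 1.22, 0.95 and 0.89 in G2/M-like, S-phase-like and spinous-like cells. RPL3L had at most 13 UMIs in any class of a calf and RPL10L at most 2, which is too few for a fold.

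RPS19BP1, the gene of the set that encodes no ribosomal protein, stood at 0.789, 0.614 and 0.625 UMIs per 10000 in other epithelial cells and at 1.34, 0.987 and 1.40 in G2/M-like and 1.10, 1.12 and 1.28 in spinous-like cells. Its groups did not overlap, and its level rose by log2 differences of 0.70 (SE 0.18, adjusted p = 0.00303) and 0.89 (SE 0.18, adjusted p = 0.000263). In endothelial-like cells it had a log2 difference in level of -0.04, where the median of all genes was also -0.04. On the scale of ribosomal protein UMIs its difference there was 1.06, beside the 1.09 of all genes.

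The calves themselves differed little in the makeup of the set. Over the 82 rows, the share of ribosomal protein UMIs in other epithelial cells of calf 2 differed from that of calf 1 by less than 0.5 in log2 for 78 rows. The same was true of 76 rows for calf 3 against calf 1 and of 79 rows for calf 3 against calf 2. RPL15, a large subunit gene singled out after its values were seen, was the row lowest in calf 3 against calf 2. It stood at 21.1, 26.3 and 12.7 UMIs per 10000 in other epithelial cells of calves 1, 2 and 3 and at 22.7, 21.9 and 9.60 in endothelial-like cells. Over 10 classes its log2 difference in share between calves 3 and 2 ran from -1.25 to -0.82, with 1 library per calf and no test.

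Of 19 other genes of translation, among them elongation and initiation factors, FAU and RACK1, 17 fell in endothelial-like cells (24.3% of all genes), 19 in fibroblast-like cells (16.5%), 17 in dendritic-like cells (23.7%) and 11 in T cell-like cells (16.6%). In G2/M-like cells 15 of 19 fell (14.8% of all genes), in S-phase-like cells 6 (8.14%) and in spinous-like cells 4, a share near that of all genes (17.2%). The median log2 differences were -0.93, -1.37, -1.33 and -0.69 in endothelial-like, fibroblast-like, dendritic-like and T cell-like cells, and -0.71, -0.42 and -0.28 in the 3 epithelial states in that order. Between T cell-like and dendritic-like cells 9 were higher in the former (5.23% of all genes). In all these comparisons the other genes of the list did not pass. EEF1D, which reloads elongation factor 1 with GTP, had a log2 difference of -2.31 and EEF2, the translocation factor, of -2.02 in dendritic-like cells.

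Genes of ribosome biogenesis moved otherwise in S-phase-like cells. Of 23 such genes, 13 rose (11.6% of all genes) and 2 fell (8.14%), with a median log2 difference of 0.59. BOP1, which matures the large subunit RNA, rose by 0.99 (SE 0.18, adjusted p = 0.000264) and FBL, which methylates ribosomal RNA, by 0.88. The 2 that fell were MYC, a transcription factor of growth genes, at -0.95, and POLR1D, a subunit of RNA polymerases I and III, at -0.48. In G2/M-like cells 6 of 23 rose (16% of all genes), led by DKC1 (0.55) and FBL (0.52), and 2 fell (14.8%), MYC (-1.25) and RRS1 (-0.59). RRS1 stood at 0.216, 0.256 and 0.504 UMIs per 10000 in other epithelial and at 0.114, 0.293 and 0.356 in G2/M-like cells of calves 1, 2 and 3, so calf 2 went the other way. In spinous-like cells 6 rose (15.4% of all genes), led by GAR1 (1.01) and BYSL (0.88), and MYC fell (-1.03), where 17.2% of all genes did. In endothelial-like, fibroblast-like and dendritic-like cells 14, 13 and 14 of the 23 fell, where 24.3%, 16.5% and 23.7% of all genes did, and the others did not pass. In T cell-like cells 7 fell (16.6% of all genes) and PES1, a partner of BOP1, rose (log2 difference 1.85), where 13.4% of all genes rose.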

How the data were processed

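The authors deposited, for each newborn calf, the counts of UMIs per gene and barcode made with Cell Ranger 3.1.0 on ARS-UCD1.2, with barcodes outside the limits used here still in them. Libraries held 82263092, 89803289 and 106145091 UMIs in 7529, 12043 and 11656 barcodes. Counting is from the 3′ end, so no level is per transcript length. Doublet removal took 191, 908 and 879 barcodes. Cells were log-normalized, merged with Harmony and clustered at resolutions of 0.1 (all cells) and 0.8 (epithelial and immune), with ribosomal protein and mitochondrial genes left out, and clusters were named from marker lists. UMIs were summed per calf and class (at least 10 cells) and tested with edgeR 4.0.16 (TMM, quasi-likelihood, all classes in 1 model, calf as block) in R 4.3.3, with Benjamini-Hochberg adjustment at 0.05 over 12858 genes. DESeq2 1.42.0, other normalizations, filters, cell limits and clusterings were alternatives. The script was checked on simulated counts. Members and gene lists were chosen with earlier results of these data known. Named genes are the 5 highest and 5 lowest rows in other epithelial cells, up to 3 per direction and comparison that passed the test of share with 1 sign in every calf, the stalk genes, RPSA, the paralogs and RPS19BP1. Of other lists, up to 2 genes per direction were named. RPL22, RPL31, RPL39L and RPL41 were not among the gene names. There was 1 library per calf, and the p-values rest on a spread pooled over all classes and calves of the model. They do not measure the spread of the compared classes alone, which had 3 calves, or 2 for dendritic-like and T cell-like cells. Some genes that the rule names are not reported here.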

Additional observations from a re-analysis of the deposited data

How the results depend on the processing

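Every difference in share kept its direction under all alternatives run, and 93 of 98 values moved by less than 1 SD over calves. Medians over cells gave -25.4 points for fibroblast-like cells and 18.7 for T cell-like against dendritic-like cells. Cells of 3000 to 10000 UMIs, an alternative chosen after seeing the data, gave -10.8 for T cell-like, -17.6 for G2/M-like and -14.2 for spinous-like cells, and 33 rows called in T cell-like against dendritic-like cells. This window left out at least as many T cell-like and fibroblast-like cells as it kept. Rows called in S-phase-like cells, 21, became 64 with DESeq2, 0 without the replicate block (2 higher and 19 lower at an unadjusted p under 0.05), 6 without doublet removal, 56 with the ribosomal protein genes among the clustering genes, 4 without Harmony, 1 among cells of 3000 to 10000 UMIs and 2 to 15 without 1 calf. In spinous-like cells 27 became 56 with DESeq2, 4 without the block, 17 without doublet removal, 44 in the UMI window and 11 to 24 without 1 calf. Rows departing from the set in fibroblast-like cells, 11, became 7 without the block or doublet removal, 3 in the window and 3 to 11 without 1 calf. Without the block, departing rows were 8 in T cell-like cells (15 with it), 5 in T cell-like against dendritic-like cells (9), 7 in G2/M-like (11) and 3 in S-phase-like cells (8). In the window they were 8 in T cell-like cells, 5 in T cell-like against dendritic-like cells and 13 in spinous-like cells (7 with all cells), and S-phase-like cells had 4 without Harmony and 5 to 6 without 1 calf. The cause was not tested. The percent of all genes that passed is not given for these alternatives, so their counts are not set against it. Of the alternative values of single departing genes, 293 passed and 15 did not, and none turned direction. These genes were picked because they passed with 1 sign in every calf, so these counts are no independent check. Leaving out calf 2 or 3 was not run for T cell-like and dendritic-like cells, which would keep 1 calf. DESeq2 moved the median of all genes in fibroblast-like cells from -0.21 to 0.21, and TMM from genes outside the set moved it in T cell-like against dendritic-like cells from -0.02 to -0.13. Without the upper limit of 4000 genes no S-phase-like cluster formed, so that comparison has no value there. The calf is the block because all classes come from the same animals.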
